A study of Mus musculus and Rattus norvegicus with 43 samples.

Results

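The 31 genes described here mark spiny projection neurons, the principal neurons of the striatum. They were taken by gene symbol from the 54532 rows of a mouse count table, and each of the 31 symbols matched a row. The rule that selects them uses symbols and no measured value, but the symbols were listed with earlier results of these data known. All 31 also passed the filter on low counts, which left 19413 genes for testing.

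Bulk RNA was sequenced from the striatum of 1 hemisphere per mouse, and the design asks how expression differed from control after an injected miRNA directed at isoforms of Taf1. Taf1 encodes the largest subunit of TFIID, the general transcription factor that binds core promoters. All mice were C57BL/6, were injected on postnatal day 0 and were 4 months old. The control group of 8 mice received a control miRNA, the design text naming a scramble control. The C/N-TAF MiRNA group (here CN) held 5 mice and the N-TAF MiRNA group (here N) held 8. The labels name no vector, promoter or injected cell type, so how many spiny neurons carried a miRNA is unknown. For 1 further mouse the injection label names no injection, and its library entered no comparison. Libraries are numbered within groups, as control 1 to 8, CN 1 to 5 and N 1 to 8, and these numbers pair no animals.

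Spiny projection neurons are inhibitory, dopamine-sensitive neurons that carry the output of the striatum. Some of the dopamine and adenosine receptors on them act through the G protein Golf and the adenylyl cyclase encoded by Adcy5. The cAMP formed is removed by phosphodiesterases and acts through protein kinase A on DARPP-32, a phosphatase inhibitor encoded by Ppp1r1b. Neurons of the direct pathway carry Drd1 and those of the indirect pathway carry Drd2. Transcription factors such as Bcl11b, Foxp1 and Six3 set up or maintain this identity during development.

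Library totals ran from 24.9 to 35.6 M (mega) counts. CN 2 stood apart from the other libraries in that its genes deviated from the control mean according to their exon length. Over all genes tested, Spearman's rho between deviation and length was -0.33 in CN 2 and 0.25 in CN 1, and it lay between -0.22 and 0.049 in the other 19 libraries. Values from fits without CN 2 are therefore given beside the counts, the medians and the genes described in most detail. Taf1 gave a log2 difference of -0.016 ± 0.0986 (SE) for N against control and of -0.12 ± 0.113 for CN against control, with edgeR adjusted p-values of 0.987 and 0.703. CN 2 had 50.6 CPM of Taf1 and the other 4 CN libraries 95.7 to 105, and without CN 2 the difference for CN against control turned to 0.035 ± 0.053 at an adjusted p of 0.938. For N it was then -0.017 ± 0.0434. Counts per gene do not separate its isoforms.

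Levels were compared between genes as CPM (read counts relative to the TMM-scaled library total) per kb of exon. Ppp1r1b had the highest level in controls, at 696 ± 28.4 CPM per kb (SD, n = 8). Next came Hpca, which encodes the neuronal calcium sensor hippocalcin, at 601 ± 52.3. Gng7, the gamma subunit that pairs with Golf, stood at 378 ± 23.5 and Pde1b, a calmodulin-dependent phosphodiesterase, at 321 ± 20.1. Rasd2, which encodes the small GTPase Rhes, stood at 296 ± 12.8 and Adcy5 at 286 ± 13.1. The lowest levels were those of Ddit4l at 9.35 ± 1, Zfp503 at 6.58 ± 0.595 and Foxp2 at 5.9 ± 0.294 CPM per kb. Ppp1r1b stood above 99.9% of all genes tested on this scale, and Foxp2 above 63.4%.

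**Figure D1:**
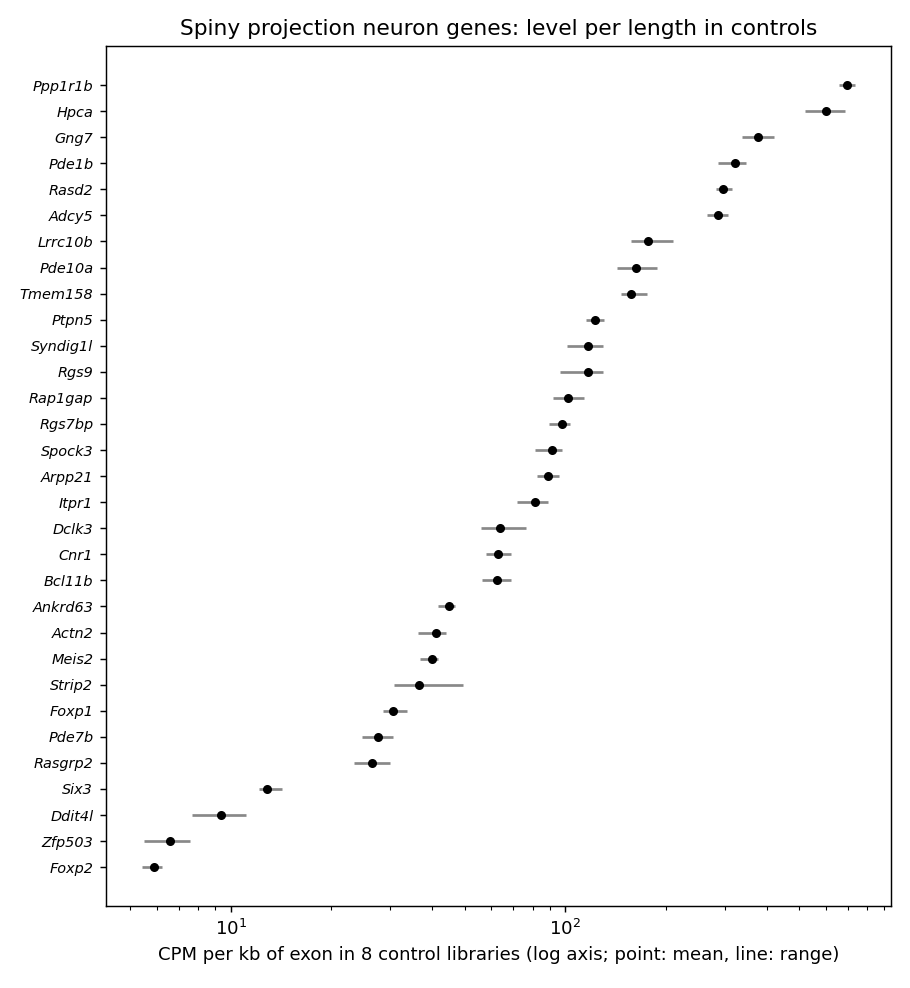
The plot gives the level of each of the 31 genes in the 8 control libraries, as CPM per kb of exon on a log axis, with the mean as a point and the range as a line. The order runs from Ppp1r1b at 696 to Foxp2 at 5.9 CPM per kb, and most neighbours overlap in range.

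Of the 30 pairs of neighbours in this order, 23 overlapped in their control ranges. Both genes of a pair were read in the same libraries, and the ranges do not compare them library by library. The 7 gaps without overlap lay below Hpca, Adcy5, Tmem158, Bcl11b, Rasgrp2, Six3 and Ddit4l. Signalling genes filled the first 6 places. The 6 transcription factors stood lower, between Bcl11b at 62.5 ± 4.34 and Foxp2, with Meis2 at 40 ± 1.56, Foxp1 at 30.5 ± 1.84 and Six3 at 12.8 ± 0.753 CPM per kb between them. The coefficient of variation over controls ranged from 3.91% for Meis2 to 17.7% for Strip2.

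Since TFIID binds core promoters, the windows from 250 bases before to 50 bases after annotated starts were read from RefSeq (GRCm38.p6). Of the 31 genes, 25 matched this table, with 52 windows in all. Dclk3, Foxp2, Itpr1, Ppp1r1b, Syndig1l and Tmem158 had no match. Windows are shown for Ddit4l and Rgs9, which had the smallest p for N against control, and for Adcy5, the cyclase of the pathway. They are also shown for Six3, whose level did not follow the others, and for Ankrd63, the gene with TATAAA at the usual distance from the start. Capitals mark the TATA element TATAAA, the box with the letters CCAAT and the GC box, spelled GGGCGG, on either strand, and each sequence runs 5′ to 3′ on the strand of the gene.
Ddit4l (chr3:137623422-137623721, plus strand): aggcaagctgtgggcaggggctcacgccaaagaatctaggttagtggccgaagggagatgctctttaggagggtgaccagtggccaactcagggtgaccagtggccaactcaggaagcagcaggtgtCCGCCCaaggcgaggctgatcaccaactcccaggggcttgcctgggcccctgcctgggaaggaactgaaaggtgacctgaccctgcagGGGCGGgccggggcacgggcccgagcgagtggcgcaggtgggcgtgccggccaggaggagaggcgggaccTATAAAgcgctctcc
Rgs9 (chr11:109298132-109298431, minus strand): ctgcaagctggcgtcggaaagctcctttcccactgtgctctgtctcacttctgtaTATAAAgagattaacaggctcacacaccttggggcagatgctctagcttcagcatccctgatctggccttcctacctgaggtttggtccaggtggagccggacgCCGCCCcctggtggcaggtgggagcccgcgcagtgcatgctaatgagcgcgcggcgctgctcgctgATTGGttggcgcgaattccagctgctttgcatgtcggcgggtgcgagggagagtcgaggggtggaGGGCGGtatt
Adcy5 (chr16:35154614-35154913, plus strand): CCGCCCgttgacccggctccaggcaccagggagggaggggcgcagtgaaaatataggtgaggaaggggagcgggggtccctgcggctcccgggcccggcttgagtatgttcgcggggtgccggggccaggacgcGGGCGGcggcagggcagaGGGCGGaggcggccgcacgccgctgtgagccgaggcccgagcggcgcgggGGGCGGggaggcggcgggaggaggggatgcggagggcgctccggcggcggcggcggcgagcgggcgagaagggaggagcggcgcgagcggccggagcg
Six3 (chr17:85620584-85620883, plus strand): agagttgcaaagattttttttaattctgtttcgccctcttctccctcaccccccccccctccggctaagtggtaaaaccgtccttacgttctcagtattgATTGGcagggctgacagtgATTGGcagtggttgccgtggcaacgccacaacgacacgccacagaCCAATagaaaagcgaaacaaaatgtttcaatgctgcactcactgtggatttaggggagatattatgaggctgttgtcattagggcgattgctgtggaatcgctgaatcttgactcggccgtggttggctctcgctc
Ankrd63 (chr2:118703914-118704213, minus strand): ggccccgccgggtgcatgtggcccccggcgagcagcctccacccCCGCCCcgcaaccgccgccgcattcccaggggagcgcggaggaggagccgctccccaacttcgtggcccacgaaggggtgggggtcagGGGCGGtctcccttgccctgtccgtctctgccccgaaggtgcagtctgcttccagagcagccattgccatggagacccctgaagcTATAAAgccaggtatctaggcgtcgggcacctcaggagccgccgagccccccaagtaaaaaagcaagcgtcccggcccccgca

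TATAAA began between 25 and 35 bases before the start in 1 of the 52 windows (1.92%), that of Ankrd63, where it began 33 bases before. The share over all 32851 windows of the table was 1.75%. TATAAA on either strand anywhere in the window was present in 11.5% of the windows of these genes and in 13.6% of all windows. For CCAAT the shares were 30.8% and 37.4%, and for GGGCGG they were 44.2% and 35.7%. The Adcy5 window held GGGCGG 4 times and neither other motif, whereas the Six3 window held CCAAT 3 times and neither other motif. The median ratio of observed to expected CpG was 0.59 for these genes and 0.38 for all windows, at a median GC content of 60.3% and 52.7%. Some genes have several windows that overlap, so windows are not independent, and a match of letters is not a bound site.

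In N mice the mean levels of most of these genes lay below those of controls, by amounts that did not pass the test for any single gene. The log2 difference for N against control was below 0 for 28 of the 31, where 47.9% of all genes tested lay below 0. Its median was -0.14 over the 31 genes and 0.0067 over all genes. None of the 31 was called at an adjusted p under 0.05 by edgeR's quasi-likelihood test, and neither was any of the 19413 genes (0%). At an unadjusted p under 0.05, 12 of the 31 were lower and 0 higher, against 4.33% and 5.06% of all genes. The genes were listed with earlier results known and vary together, so these shares are a description and no test of the list. For 0 of the 31 did all N libraries lie below all controls, as they did for 0.108% of all genes. DESeq2 called 0 of the 31 and 0.322% of all genes, and limma-voom called 0 of either. By either tool 12 were lower at an unadjusted p under 0.05. The shares of all genes were 2.84% with DESeq2, run with no low-count filter, and 4.48% with limma-voom. In bulk tissue, fewer spiny neurons and less RNA per spiny neuron cannot be told apart.

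Without CN 2, which is in neither of these groups but enters the shared estimate of spread, 1 of the 31 was called lower. The background of lower calls was 0.667% and 19 genes then had an unadjusted p under 0.05, against 8.09% of all genes. With only the control and N libraries fitted, the same gene was called (background of lower calls 0.738%) and 21 were lower at an unadjusted p under 0.05, against 9.3%. That gene was Itpr1, the receptor that releases calcium from the endoplasmic reticulum on binding inositol trisphosphate.

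Control levels of Itpr1 ran from 1316 to 1626 CPM with a median of 1483. N levels ran from 1096 to 1432 with a median of 1261. CN 1 to 5 had 1502, 584, 1250, 1532 and 1491 CPM. All 8 N libraries lay below the control mean and 4 of them below every control, while the other 4 overlapped the control range. The log2 difference for N against control was -0.23 ± 0.128 with an edgeR adjusted p of 0.597 over all libraries. Without CN 2 it was -0.24 ± 0.0584, a decrease of 15.1%, with an adjusted p of 0.0489. CN 2 itself held the lowest Itpr1 level of any library.

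Among genes of cAMP and phosphatase signalling, 8 of 8 lay below 0 for N against control (47.9% of all genes), with a median log2 difference of -0.15. Of these 8, 4 were lower at an unadjusted p under 0.05 over all libraries, against 4.33% of all genes. Without CN 2 the number was 7, against 8.09%, with the same median to 2 digits. Adcy5 ran from 1902 to 2206 CPM in controls with a median of 2044, and from 1490 to 1982 in N with a median of 1891. In CN, libraries 1 to 5 had 1894, 1526, 2086, 2063 and 1999 CPM. All 8 N libraries lay below the control mean and 5 below every control. For N against control Adcy5 gave a log2 difference of -0.18 ± 0.066, with an edgeR adjusted p of 0.358 and of 0.066 without CN 2. Without CN 1 and CN 2, Adcy5 and Itpr1 were called, against 1.5% of all genes.

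Pde1b ran from 1540 to 1866 CPM in controls with a median of 1732, and from 1219 to 1767 in N with a median of 1529. CN 1 to 5 had 1467, 1981, 1909, 1889 and 1805 CPM. N and control overlapped, with 4 N libraries below every control. The log2 difference was -0.21 ± 0.0785 at an edgeR adjusted p of 0.378, and of 0.144 without CN 2. Pde10a, whose product hydrolyses both cAMP and cGMP and is dense in the striatum, stood at 2088 ± 204 CPM in controls and 1809 ± 185 in N. Ppp1r1b stood at 2038 ± 83 and 1815 ± 255, and 4 of the 8 N libraries lay within its control range. The log2 differences of the remaining members of this role lay between -0.14 and -0.12. They are Pde7b (a cAMP phosphodiesterase), Gng7, Arpp21 (a phosphoprotein regulated by cAMP) and Ptpn5 (the striatal-enriched tyrosine phosphatase STEP).

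Genes that control G proteins and small GTPases had a median log2 difference of -0.19 for N against control, with 5 of 5 below 0 (47.9% of all genes). Of the 5, 4 were lower at an unadjusted p under 0.05, against 4.33% of all genes. Without CN 2 these values of the role were the same, against 8.09% of all genes lower. Rgs9 accelerates the shutting off of inhibitory G proteins downstream of dopamine and opioid receptors. It ran from 617 to 827 CPM in controls with a median of 777, and from 508 to 707 in N with a median of 645. The values in CN 1 to 5 were 713, 897, 781, 767 and 726 CPM. All 8 N libraries lay below the control mean but only 2 below every control. Rgs9 gave a log2 difference of -0.24 ± 0.0754, 15.1% lower, at an edgeR adjusted p of 0.283 and of 0.0742 without CN 2.

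Rasd2 ran from 894 to 999.9 CPM in controls with a median of 936, and from 674 to 919 in N with a median of 853. The CN libraries, in order, had 809, 852, 1006, 917 and 948 CPM. Of the 8 N libraries, 6 lay below every control. The log2 difference was -0.21 ± 0.0704 at an edgeR adjusted p of 0.302, and of 0.0927 without CN 2. Rgs7bp, which anchors R7-type RGS proteins at the membrane, and Rasgrp2, an activator of the small GTPase Rap, both had a log2 difference of -0.19. Rap1gap, which switches Rap off, gave -0.07 ± 0.0672.

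Of the calcium and actin genes, Actn2 encodes an actin cross-linking alpha-actinin of dendritic spines. It ran from 138 to 167 CPM in controls with a median of 159, and from 113 to 163 in N with a median of 138. CN 1 to 5 had 166, 156, 163, 155 and 162 CPM, all within the control range. N and control overlapped, with 4 N libraries below every control. The log2 difference was -0.19 ± 0.0648 at an edgeR adjusted p of 0.342, and of 0.107 without CN 2. Hpca gave -0.2 ± 0.121 and ranged widely within N, from 1129 to 1864 CPM.

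Genes of the membrane and matrix had a median log2 difference of -0.19, with 4 of 4 below 0 (47.9% of all genes). Syndig1l, which encodes a membrane protein related to Syndig1, ran from 312 to 398 CPM in controls with a median of 366. N ran from 192 to 375 with a median of 304, and CN 1 to 5 had 271, 379, 396, 377 and 388 CPM. The lowest N libraries were N 3, N 5 and N 8, at 192, 211 and 250 CPM, while N 1, N 2, N 4 and N 6 lay within the control range. Its log2 difference was -0.32 ± 0.114, 19.9% lower, at an edgeR adjusted p of 0.35, and of 0.196 without CN 2.

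Cnr1, the cannabinoid receptor CB1, spread more within N than any other of the 31 except Ddit4l, with a coefficient of variation of 27.1% against 6.26% in controls. N 5 and N 8 stood at 188 and 225 CPM, and N 2 and N 4 at 437 and 433, within the control range of 374 to 443. Its log2 difference was -0.25 ± 0.155 at an edgeR adjusted p of 0.675, and of 0.396 without CN 2. Spock3, which encodes a matrix proteoglycan, gave -0.12 ± 0.0839, and Tmem158 gave -0.07 ± 0.0951.

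The transcription factors had the median log2 difference closest to 0 of the 6 roles, at -0.053. Over all libraries 0 of 6 had an unadjusted p under 0.05, where 4.33% of all genes were lower and 5.06% higher. Without CN 2 the number was 2, Bcl11b and Foxp1, both lower, against 8.09% of all genes, with a median of -0.054. Bcl11b (CTIP2) stood at 507 ± 35.2 CPM in controls and 462 ± 35.7 in N, and Foxp1 at 419 ± 25.3 and 381 ± 37.1. The log2 differences of Six3 and of Zfp503, a zinc finger repressor of the developing striatum, were -0.06 and -0.05. Foxp2 gave -0.02 ± 0.0552. Meis2, a homeobox factor, was the single one above 0, at 0.05 ± 0.0514. Whether transcription factors and signalling genes differed from each other was not tested.

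The remaining 5 genes share no role. Ddit4l encodes a relative of Ddit4, an inhibitor of the growth kinase complex mTORC1. It ran from 22.3 to 32.3 CPM in controls with a median of 27.6, and from 13.9 to 31.6 in N with a median of 19.9. The 5 CN libraries had 28.3, 31.7, 32.4, 27.7 and 29.2 CPM. N 3, N 5 and N 8 were lowest at 13.9, 14.3 and 16.1 CPM, 5 N libraries lay below every control, and N 1 lay high in the control range. The log2 difference of -0.43 ± 0.127, 25.5% lower, was the largest of the 31, at an edgeR adjusted p of 0.246, and of 0.117 without CN 2. Without N 1 it was -0.54 and was called, against a background of 0.165% of all genes.

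Lrrc10b, which encodes a leucine-rich repeat protein, ran from 331 to 441 CPM in controls with a median of 362. N ran from 228 to 383 with a median of 312, and CN 1 to 5 had 279, 474, 464, 338 and 394 CPM. The groups overlapped, with 5 N libraries below every control. The log2 difference was -0.28 ± 0.107 at an edgeR adjusted p of 0.386, and of 0.188 without CN 2. Dclk3, a doublecortin-like kinase, and Strip2, a subunit of a phosphatase and kinase complex, were both at 0.01, and Ankrd63 was at -0.1 ± 0.0569.

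**Figure D2:**
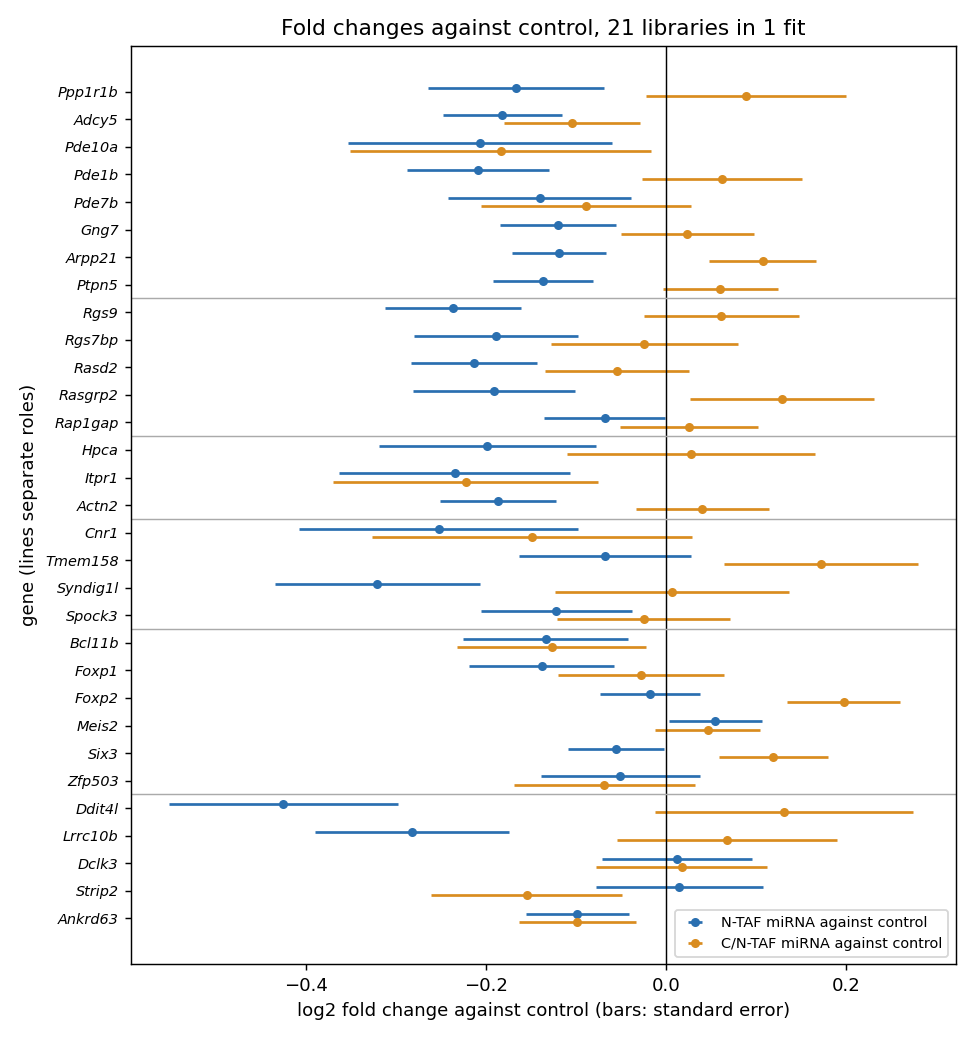
The plot gives the log2 fold change of each of the 31 genes against control for N and for CN, from the fit of all 21 libraries, with standard errors as bars and lines separating the roles. For N, 28 of 31 points lie left of 0, and for CN 18 lie right of it. Both comparisons share the control libraries.

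**Figure D3:**
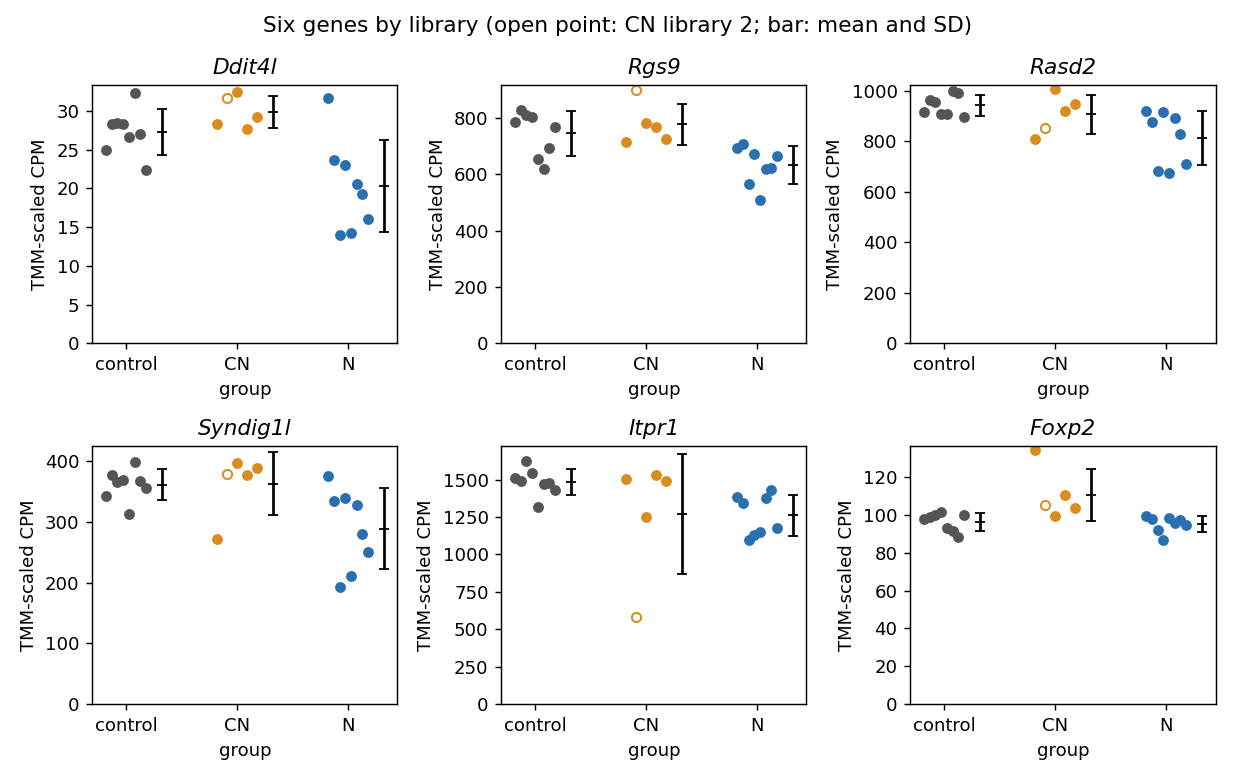
Each point is the TMM-scaled CPM of a gene in 1 library, with the mean and SD of each group beside the points and CN 2 drawn open. N values of Ddit4l, Rgs9, Rasd2, Syndig1l and Itpr1 reach below the control range but overlap it. Foxp2 in CN lies above every N library, the lowest CN value only just.

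The N libraries differed among themselves. Deviations were taken as log2 CPM minus the control mean, and their median over the 31 genes was -0.36 in N 3, -0.35 in N 5, -0.23 in N 8 and -0.16 in N 7. It was -0.1 in N 6, -0.053 in N 4, -0.024 in N 2 and -0.019 in N 1. Controls lay between -0.1 (control 5) and 0.055, so N 1, N 2, N 4 and N 6 fell within the range of controls and the other 4 below it. Of the 31 genes, 29 lay below the control mean in N 7, 28 in N 3 and in N 8, 27 in N 6 and 24 in N 5. The number was 20 in each of N 1, N 2 and N 4. Single controls ran from 5 in control 3 to 30 in control 5, so all these counts lay within the control range. Of all genes tested, between 47.1% (N 1) and 50% (N 7) lay below the control mean. Over all genes tested the median deviation lay between 0.00018 and 0.014 in the 8 N libraries.

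The roles deviated unequally within these libraries. In N 5 the median deviation was -0.54 for G-protein and small GTPase control and -0.56 for membrane and matrix, but 0.045 for the transcription factors. In N 3 the same roles gave -0.39, -0.34 and -0.17, and in N 8 they gave -0.23, -0.43 and -0.093.

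**Figure D4:**
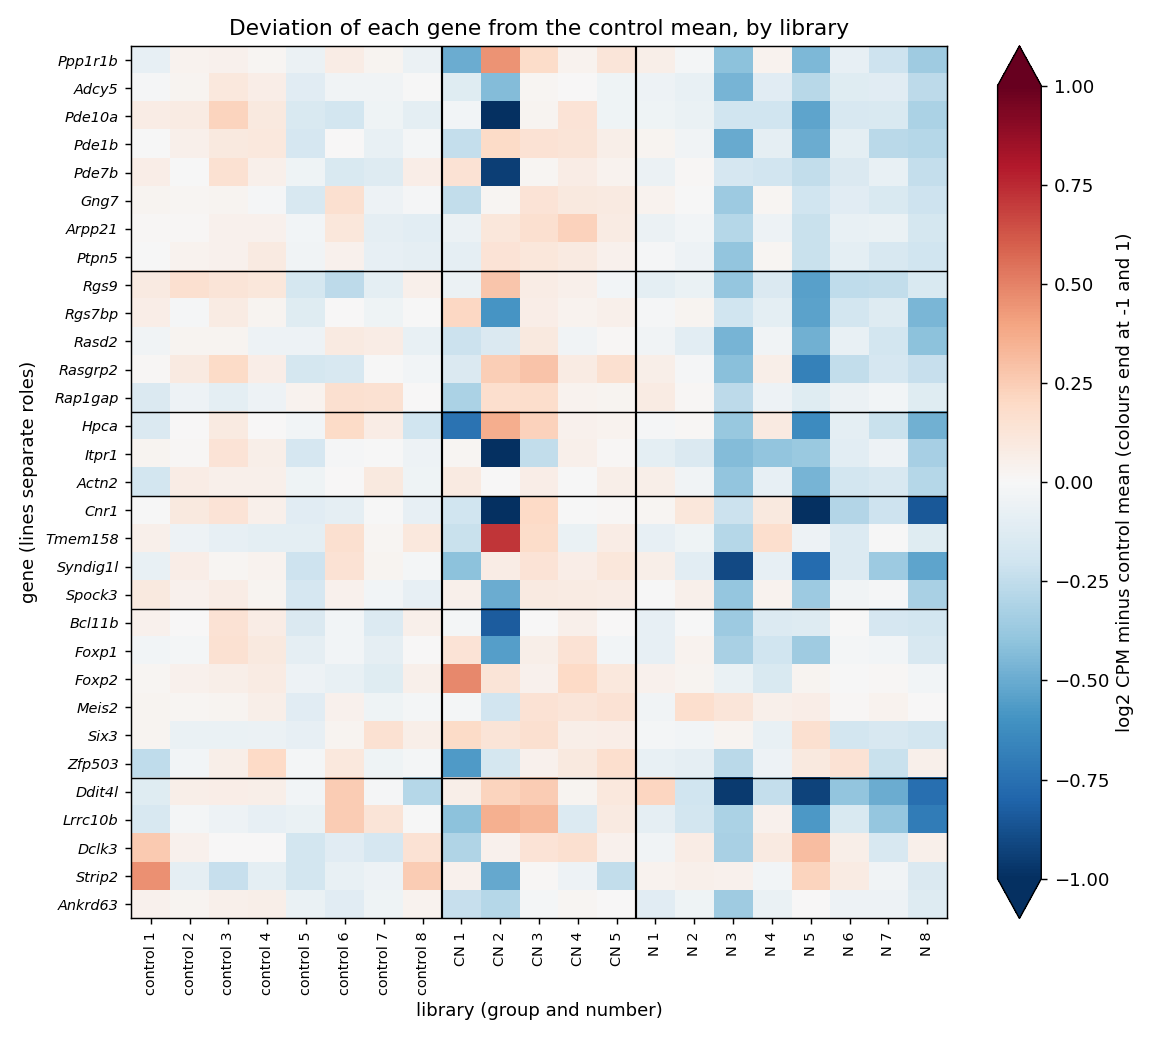
The map gives log2 CPM minus the control mean for 31 genes (rows, lines separating roles) in 21 libraries (columns), with colours ending at -1 and 1. N 3, N 5 and N 8 are blue over most rows, N 1 and N 2 are near 0, and CN 2 mixes strong red and strong blue.

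The 31 genes together took 2.29 ± 0.0957% of all counts in controls (SD over 8 libraries), 2.25 ± 0.199% in the 5 CN libraries and 2.07 ± 0.172% in the 8 N libraries. The range was 2.12 to 2.43% in controls and 1.83 to 2.25% in N, so the groups overlapped.

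Markers of other cells in the dissected tissue were read in the same libraries, as the summed CPM of each list. For pan-neuronal genes (7 of 7 detected in every library) the range was 3755 to 4161 in controls and 3696 to 4257 in N, with a median log2 difference of 0.0061. Cholinergic interneuron genes (5 genes, none at 0, defined by Chat) summed to between 157 and 170 in controls and to between 80.9 and 156 in N, without overlap. N 3 and N 5, low for the spiny neuron genes, had the lowest cholinergic sums, at 80.9 and 94.9. Endothelial genes summed to 157 to 219 in controls and 119 to 174 in N. The 5 cholinergic and 5 endothelial genes were all lower at an unadjusted p under 0.05, against 4.33% of all genes. Their median log2 differences were -0.43 and -0.46. Without CN 2, 4 cholinergic and 3 endothelial genes were called lower, against 0.667% of all genes. Choroid plexus genes (8 genes led by Ttr, none at 0) summed to between 26.3 and 1036 in controls and to between 32.4 and 3712 in N. N 5 had a choroid plexus sum of 1756, but N 3 had 69.9 and N 8 had 32.4, within the control range. Neuroblast genes (6 genes with Dcx, none at 0) summed to between 98 and 129 in controls and to between 131 and 239.5 in N, again without overlap. All 6 were higher at an unadjusted p under 0.05, against 5.06% of all genes. Without CN 2, Dcx, Dlx1 and Sp8 were called higher, where 1% of all genes were called in either direction. Astrocyte genes (6 genes, none at 0) overlapped in their sums, at 3676 to 4291 in controls and 3668 to 4358 in N. Slc1a2 made up most of these sums, at 2928 ± 150 CPM in controls and 2779 ± 179 in N. It was the 1 gene of the list below 0, while 5 lay above 0, and the median log2 difference was 0.17. Of the 6, 3 were higher at an unadjusted p under 0.05, against 5.06% of all genes, and 4 without CN 2. Gja1 alone was called higher without CN 2, against the same 1% of all genes. Skeletal muscle genes (Myh4, Acta1 and Ckm) summed to 27.5 CPM in N 5 and 27.7 in N 8, to at most 5.24 in controls and to at most 7.57 in the other N libraries. Myh4 had 15.7 CPM in N 5 and 15 in N 8 and at most 0.239 in the other libraries, and up to 2 of the 3 genes were at 0 in a control. Acta1, the 1 gene of the 3 that passed the filter, ran from 3.45 to 4.99 CPM in controls and from 4.95 to 10.4 in N. Its log2 difference was 0.72, at an edgeR adjusted p of 0.236 over all libraries. Without CN 2 Acta1 was called higher at an adjusted p of 0.0347, against 1% of all genes called in either direction. Without N 5 and N 8, the median log2 difference of the 31 genes for N against control was -0.11, and none was called. The number lower at an unadjusted p under 0.05 was then 5, against 2.9% of all genes. Without CN 2, N 5 and N 8 it was 13, against 6.67%, the median was again -0.11, and Itpr1 was no longer called, at an edgeR adjusted p of 0.186. Excitatory neuron genes (8 genes with Slc17a7) summed to between 77.6 and 250 in controls and to between 101 and 411 in N, with N 3, N 5 and N 8 at 164, 177 and 101. The libraries also fell into those with at least 0.5 CPM of Ambn, an enamel matrix gene, and those with less, and N 3, N 5 and N 8 were all among the latter. The median log2 difference of the 31 genes for N against control was -0.082 within the first class (5 control and 3 N libraries) and -0.18 within the other (3 control and 5 N). Without CN 2 and the N libraries 5 and 6, the median log2 difference of the 31 genes for N against control was -0.13. Microglia genes summed to 356 to 400 in controls and 328 to 374 in N. Oligodendrocyte genes summed to 7826 to 10694 and to 5578 to 11212, lowest in N 5. All genes of both lists were below 0. Non-cholinergic interneuron (183 to 239 and 203 to 238) and ependyma genes (34.9 to 43.3 and 23.9 to 75.9) all lay above 0. At an unadjusted p under 0.05, 3 microglia genes were lower and 2 such interneuron genes higher, against 4.33% and 5.06% of all genes. None was called over all libraries or without CN 2. The part that these and the cholinergic, endothelial, neuroblast, astrocyte, muscle and Ambn differences have in these results was not tested.

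Other genes of the same signalling and identity pathways were read from a list of 30, all of which passed the filter. For N against control, 22 of the 30 lay below 0 (47.9% of all genes), with a median log2 difference of -0.064. None was called over all libraries, while 5 were lower and 1 higher at an unadjusted p under 0.05, against 4.33% and 5.06% of all genes. Without CN 2, 2 were called, both lower, against 0.667% of all genes. Ppp1r9b encodes spinophilin, which brings protein phosphatase 1 to dendritic spines, and stood at 1494 ± 135 CPM in controls and 1145 ± 168 in N. It fell by 0.38 on the log2 scale without CN 2, at an edgeR adjusted p of 0.0306. The D2 dopamine receptor gene Drd2 fell by 0.21 in that fit, at an adjusted p of 0.0496, from 278 ± 8.3 to 240 ± 27.4 CPM. Over all libraries their adjusted p-values were 0.121 and 0.266. Drd1, the D1 dopamine receptor gene, gave -0.2 ± 0.0593 and was called in neither fit. The median of 6 direct pathway genes was -0.14 and that of 6 indirect pathway genes was -0.052, and their difference was not tested. In each list 5 genes lay below 0 and 1 above. The direct pathway gene above 0 was Pdyn, at 0.24, with 158 ± 16 CPM in controls and 186 ± 29.5 in N. It was the 1 pathway gene higher at an unadjusted p under 0.05.

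In CN mice no shift of these genes was detected by the test. For CN against control 18 of the 31 lay above 0 (50.1% of all genes) and 13 below, with a median log2 difference of 0.023. edgeR called none of the 31 and none of the 19413 genes (0%), and DESeq2 and limma-voom called none either. At an unadjusted p under 0.05, 1 of the 31 was higher, against 5.08% of all genes, and 0 were lower, against 3.28%. Without CN 2 the median was 0.016, with 20 above 0 (48.8% of all genes). Within the libraries under 0.5 CPM of Ambn, which hold a single CN library, it was 0.14, and within the others it was -0.053.

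That gene was Foxp2, whose control levels ran from 88.5 to 102 CPM with a median of 98.3. CN 1 to 5 had 134, 105, 99.4, 110 and 104 CPM. Its N levels ran from 86.8 to 99.2 with a median of 96.6. CN 1 was highest, 4 of 5 CN libraries lay above every control, and all 5 lay above every N library. The closest of these were CN 3 at 99.35 and N 1 at 99.19 CPM, a negligible gap. The log2 difference for CN against control was 0.2 ± 0.0626, at an edgeR adjusted p of 0.59 and of 0.835 without CN 2. Six3 had the next smallest p, with 66 to 77.7 CPM in controls (median 69.1), 79.7, 76.2, 77.8, 72.6 and 72.9 in CN 1 to 5, and 61.3 to 77.9 in N (median 67.3). CN lay in or just above the upper part of the control range, with a log2 difference of 0.12 ± 0.0604 at an edgeR adjusted p of 0.601, and of 0.835 without CN 2.

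Within the CN group, deviations correlated with gene length with opposite signs in CN 1 and CN 2. In CN 2 the short genes Ppp1r1b, Tmem158 and Hpca stood above every control, at 2782, 443 and 2245 CPM. The long genes Pde10a, Itpr1 and Pde7b stood at 721, 584 and 177 CPM, below every other library. Not all long genes were low there, since Arpp21, Foxp2 and Rasgrp2 deviated by 0.11, 0.13 and 0.25 on the log2 scale. Over the 31 genes, Spearman's rho between deviation and exon length was -0.6 in CN 2 and 0.59 in CN 1, a description within single libraries. In CN 1, Hpca stood at 1047, Ppp1r1b at 1445 and Lrrc10b at 279 CPM, all below every control. For N against control, rho between log2 difference and length was 0.18.

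**Figure D5:**
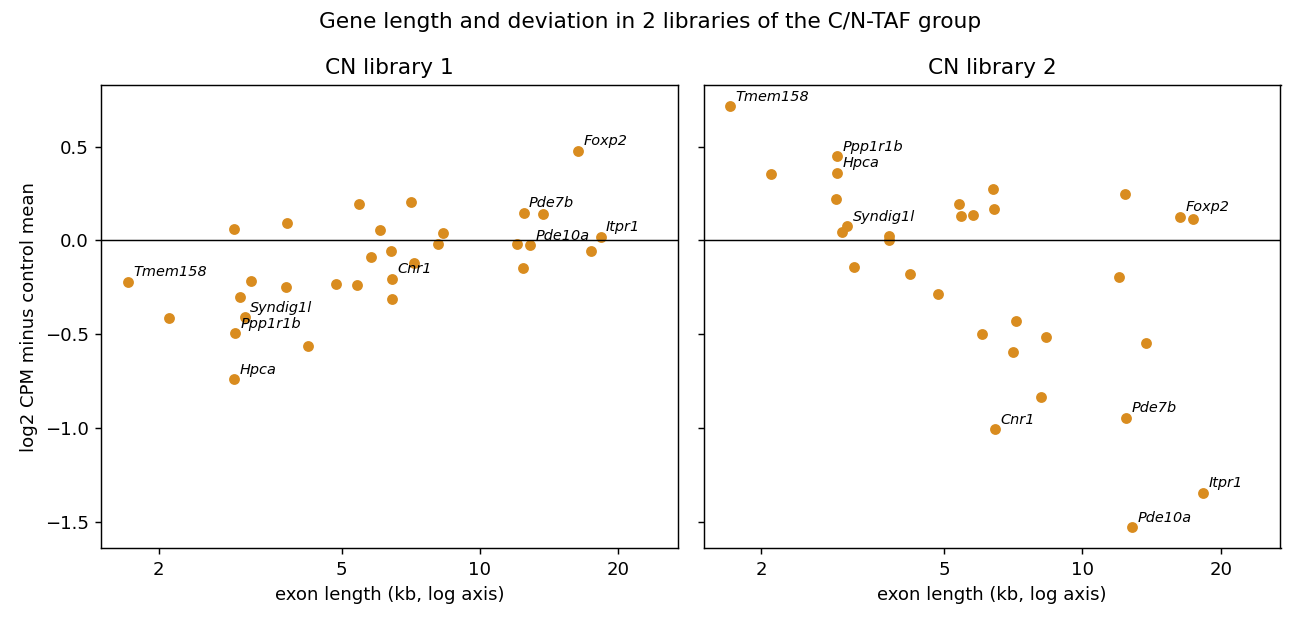
The plot gives log2 CPM minus the control mean against exon length in kb (log axis) for the 31 genes in CN 1 and CN 2. In CN 1 the short genes Hpca and Ppp1r1b lie below 0, whereas in CN 2 they lie above 0 and Pde10a and Itpr1, both long, lie below -1, while a few long genes such as Foxp2 lie above 0.

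Compared directly, CN lay above N for 27 of the 31 genes (50% of all genes), with a median log2 difference of 0.16 against 0.000034 over all genes. edgeR called none of the 31 and none of all genes (0%), with 13 higher and 0 lower at an unadjusted p under 0.05, against 5.99% and 5.83% of all genes. limma-voom called none, and DESeq2 called Arpp21 and Ddit4l (0.785% of all genes). With the length dependence of each library as a covariate, 5 of the 31 were called, against 1.84% of all genes, and without N 1 Ddit4l was called, against 0.119%. Without CN 2, 30 of 31 lay above 0 (47.1% of all genes), the median was 0.2 and 21 had an unadjusted p under 0.05, against 7.85% of all genes, while none was called (0.356% of all genes were) and the smallest adjusted p was 0.0575. Rgs9 and Foxp2 were the 2 genes whose CN libraries all lay above every N library, a separation found in 0.222% of all genes. Both margins were narrow, with a lowest CN and highest N library of 713 and 707 CPM for Rgs9 and of 99.35 and 99.19 for Foxp2. The median was 0.035 within libraries with at least 0.5 CPM of Ambn and 0.3 within the others, where CN is again a single library. The comparison shares its N libraries with that of N against control, so it is not a separate observation of the lower levels in N.

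The 31 genes varied together within groups to different degrees. After subtraction of group means, each gene was correlated over the 21 libraries with the mean of the other 30. These libraries share their tissue source and scaling, and the values are a description. Pearson's r was 0.88 for Adcy5 and for Rasd2 (Spearman's rho 0.93 and 0.83), 0.85 for Spock3 and 0.82 for Syndig1l, and its median was 0.59. It was lowest for Six3 at -0.3, Foxp2 at -0.17, Tmem158 at -0.07 and Strip2 at 0.063. Without CN 2 the value for Ppp1r1b went from 0.48 to 0.89 and that for Pde1b from 0.75 to 0.96, and Six3 stayed lowest at -0.32.

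Of 11902 other genes with a mean of at least 5 CPM, those whose deviations were among the most like the mean of the 31 were Scn4b, a sodium channel beta subunit, at r = 0.97, and Hipk4, a protein kinase, at 0.96. Gpr155 and Arhgap33 were both at 0.91 (n = 21 libraries). Without CN 2, Scn4b and Hipk4 were again among the first 5, at 0.98 and 0.96, joined by Ppp1ca, a catalytic subunit of protein phosphatase 1, at 0.96 and by Drd2 at 0.95.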

How the data were processed

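The authors deposited raw read counts per Ensembl gene, with 1 column per mouse, made with STAR and featureCounts. The submitters' processing notes name these tools and edgeR. No version, annotation release or strand setting is given in the sources used here. Reads of a gene and of one antisense to it or overlapping it could therefore not be told apart. The notes name the build GRCh38, although the rows are mouse genes, so no coordinates were taken from the counts. Of 54532 rows, 54409 had a symbol in the gene name table. Groups came from the injection label: 8 control, 5 CN and 8 N mice, with 1 library left out of all comparisons. Every mouse record carries the same description irrespective of that label. The rat table was not used here.

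The deposited counts of all 21 libraries were fitted together with edgeR 4.0.16 under R 4.3.3, by the quasi-likelihood method with TMM scaling, robust dispersion, the filterByExpr filter and Benjamini-Hochberg adjustment over 19413 genes. Genes were called at an adjusted p under 0.05. SE is the log2 fold change divided by the root of the F statistic. Log2 CPM used a prior count of 2, and lengths are GENCODE M21 union exons. Each column is a separate mouse by its label, so p-values measure the spread between these mice. Chi-square per gene between the 2 closest libraries of a group was 5.91 times that of sampling noise, so none was counted as a duplicate. Totals were 24.9 to 33 M counts in control, 26.7 to 35.6 M in CN and 25.4 to 30.9 M in N.

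Alternatives were DESeq2 1.42.0, limma-voom (limma 3.58.1), RLE size factors, no low-count filter, only the groups compared, each library left out, and the class of a library by Ambn reads (0.5 CPM) as covariate or split. Chosen after seeing the data were library totals with no TMM factor, length dependence as a covariate, and fits without CN 1 and 2 or without N 5 and N 6 or N 5 and N 8 together with CN 2, and without N 5 and N 8 alone. In simulated counts of 19413 genes for N against control, the fit called 100% of genes changed by a log2 of 1 and 24% of those changed by 0.3. These counts were drawn independently at the dispersion trend of the fit, with no outlying library and no length dependence. The rates therefore need not hold for the measured libraries.

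The 31 genes and all lists were chosen with earlier results of these data known. Full values are given for genes called in the fit of all libraries or of the 2 groups compared, the 8 of smallest p for N against control and the 2 for CN against control. Of the 30 other pathway genes, those called, up to 4 of smallest p and Pdyn are named, and of the remaining genes the 5 most alike. A gene that this rule takes is not reported here.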

Additional observations from a re-analysis of the deposited data

Results flagged for a closer look

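In 93 groups of values (31 genes in 3 groups), 8 had a highest or lowest library set apart from the rest of its group by Dixon's criterion, which chance alone meets in about 1 of 20 groups. Of the 8, 5 were the lowest value of CN 2: Pde10a at 721 CPM with the next library at 2020, Pde7b at 177, Rgs7bp at 458, Spock3 at 391 and Bcl11b at 284 CPM. In CN 1, Syndig1l at 271 and Dclk3 at 155 CPM were set apart below the other CN libraries. In N 3, Ankrd63 was set apart at 170 CPM.

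The library whose label names no injection entered no comparison. It stood above every control for Actn2, at 174 CPM against a highest control of 167, and for Meis2, at 505 against 501. For 2 other genes it stood below every control.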

How the results depend on the processing

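The number of the 31 genes called for N against control was 0 in the fit of all libraries and went to 1 with only the groups compared (Itpr1) and to 2 without CN libraries 1 and 2 (Adcy5 and Itpr1, against 1.5% of all genes). Leaving out each library in turn gave 0 to 1, with Itpr1 without CN 2 and Ddit4l without N 1. The median log2 difference was -0.16 to -0.13 when leaving out each library and -0.18 to -0.082 over the other settings. For CN against control the count was 0 in all 35 settings. The median was -0.01 to 0.088 when leaving out each library, -0.053 and 0.14 within the Ambn classes at or over and under 0.5 CPM. For CN against N the count was 2 with DESeq2 and 5 with length dependence as a covariate (Arpp21, Rgs9, Foxp2, Ddit4l and Lrrc10b, against 1.84% of all genes), and 0 to 1 when leaving out each library, with Ddit4l called without N 1. The median was 0.12 to 0.2 when leaving out each library, 0.035 and 0.30 within the Ambn classes. The cause of these shifts was not tested. For single genes the sign of the log2 difference changed under some setting for 4 of 31 for N against control, 21 for CN against control and 14 for CN against N, all uncalled. No paired analysis was possible because replicate numbers follow the order of the records and pair no animals. In the simulated counts for N against control, differences near a log2 of 0.3 were detected at the low rate given with the methods. No such rate was computed for comparisons with the 5 CN libraries.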
